A study of Mus musculus with 32 samples.

Results

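The gene set described here held 10 genes of the oxygen-sensing pathway of hypoxia-inducible factor (HIF), namely Hif1a itself and its known target genes Ero1l, Ndrg1, Egln3, Egln1, Adm, Bnip3, Ankrd37, Car12 and Vegfa. The members were found by gene symbol, and all 10 were among the 31053 genes listed in every count matrix. They had been chosen by their levels across cell types and by their correlation within single cells and their spread over pools in these same data, so these 3 patterns are given below as a description, with no test. The cells were bone marrow-derived stromal cells differentiated in vitro under osteogenic conditions (BMSC-OBs) from 77 Diversity Outbred (DO) mice, an outbred population in which every animal carries its own mixture of founder alleles. Cells of 4 or 5 mice were combined in each of 16 pools (numbered 1 to 14, 17 and 18), and each pool was sequenced in runs HGYVNCCX2 and HHFFMCCX2. The labels gave no treatment, oxygen level, genotype, sex or age, and all cultures received the same osteogenic medium. The comparisons are therefore between cell classes set by marker genes and between cells of one such class. A pool is the replicate throughout. The cells of one pool were not assigned to their mice here, so a difference within a pool can lie between its mice as well as between cells of one mouse, and the mice of a pool cannot be told apart from its culture and handling.

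HIF is a pair of an alpha subunit, Hif1a or Epas1, and Arnt. When oxygen is present the prolyl hydroxylases Egln1, Egln2 and Egln3 mark the alpha subunit for capture by Vhl and for degradation, so HIF activity is set largely by the stability of the protein and not by the level of Hif1a mRNA. When oxygen falls, HIF binds the core letters ACGTG or GCGTG in its target genes and raises glycolysis, cell survival and blood vessel growth, and in bone the pathway is known for linking osteoblasts to vessels through Vegfa. Egln1 and Egln3 are themselves HIF targets and close a negative feedback loop.

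In GRCm38 coordinates (GENCODE M21 annotation) the members are protein-coding genes at Ero1l chr14:45283087-45318771, Ndrg1 chr15:66929318-66969640, Egln3 chr12:54178981-54203860, Egln1 chr8:124908587-124949324, Bnip3 chr7:138890836-138909519, Ankrd37 chr8:45996902-46005707 and Vegfa chr17:46016993-46032369, all on the minus strand. Adm chr7:110627661-110629820, Car12 chr9:66713686-66766845 and Hif1a chr12:73901375-73947530 are on the plus strand. Promoter sequences from RefSeq (GRCm38.p6) were matched for 9 of the 10 members, Ero1l under its synonym Ero1a, and Ndrg1 had no entry. The 250 bases before each start were searched on both strands for ACGTG, which reads CACGT on the other strand. A match was found in 7 members, Ero1l, Egln3, Egln1, Bnip3, Ankrd37, Hif1a and Vegfa, and none in Adm or Car12. For Vegfa it lay only in the second of its listed promoters (chr17:46025164-46025413), which is inside the annotated gene. The windows of Ankrd37 and Hif1a (chr12:73907617-73907866 for Hif1a) also lie inside the annotated genes, as their RefSeq starts are downstream of the GENCODE ones. Counted in the same way, with every listed promoter of a gene, the letters were found in 18.49% of 27025 genes. The other core, GCGTG, which reads CACGC on the other strand, was found in Ero1l, Egln1, Adm, Bnip3, Ankrd37 and Vegfa, and in 30.85% of genes. For Vegfa it was again found in the second promoter only. Those of the redox enzyme Ero1l, the oxygen sensor Egln1, the mitophagy receptor Bnip3 and the ankyrin-repeat gene Ankrd37 are shown as examples of a promoter with a match, chosen for the different roles of these genes. The windows are chr14:45318573-45318822 (Ero1l), chr8:124949255-124949504 (Egln1), chr7:138909507-138909756 (Bnip3) and chr8:45999851-46000100 (Ankrd37), each read 5′ to 3′ on the minus strand, with the matches in capitals.
Ero1l: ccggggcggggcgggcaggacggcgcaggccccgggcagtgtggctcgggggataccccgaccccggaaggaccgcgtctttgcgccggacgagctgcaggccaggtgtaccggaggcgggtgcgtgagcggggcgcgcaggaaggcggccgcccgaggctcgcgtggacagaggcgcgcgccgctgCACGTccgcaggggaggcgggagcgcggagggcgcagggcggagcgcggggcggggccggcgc
Egln1: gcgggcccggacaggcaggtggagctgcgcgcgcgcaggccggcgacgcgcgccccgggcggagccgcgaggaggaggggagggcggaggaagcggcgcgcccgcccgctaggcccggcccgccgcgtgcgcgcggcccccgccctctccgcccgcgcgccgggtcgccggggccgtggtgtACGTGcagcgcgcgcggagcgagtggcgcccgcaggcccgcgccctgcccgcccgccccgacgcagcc
Bnip3: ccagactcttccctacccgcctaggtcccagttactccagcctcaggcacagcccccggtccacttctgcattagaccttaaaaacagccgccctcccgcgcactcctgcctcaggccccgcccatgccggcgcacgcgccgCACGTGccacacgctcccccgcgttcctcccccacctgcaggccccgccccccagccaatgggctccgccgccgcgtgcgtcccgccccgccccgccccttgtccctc
Ankrd37: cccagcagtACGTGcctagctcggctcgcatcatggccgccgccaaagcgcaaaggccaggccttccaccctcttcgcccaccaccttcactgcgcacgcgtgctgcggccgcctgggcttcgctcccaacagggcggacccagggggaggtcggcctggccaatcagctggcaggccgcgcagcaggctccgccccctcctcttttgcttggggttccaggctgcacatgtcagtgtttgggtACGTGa
The match began 63 bases before the start in Ero1l and 68 bases before it in Egln1. Bnip3 held the palindrome CACGTG, in which the matches on both strands overlap, at 108 bases before the start. Ankrd37 held a match at 241 and another at 6 bases before its RefSeq start, which is inside the annotated gene. A match of these letters is a description of the sequence and no evidence of binding.

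Levels were read from run HGYVNCCX2, with 53990642 to 100777353 unique molecular identifiers (UMIs, each one captured mRNA molecule) per pool. Run HHFFMCCX2 held 98.2% of the same barcodes and is a second sequencing of the same libraries, not a further replicate. Between any pair of pools 3 to 28 barcodes were shared. Of 107853 barcodes, 72779 passed the cell filters and the depth minimum, and 54548 were placed in one class by marker genes, none of which was a member. There were 26849 osteoblast-like cells (osteoblast progenitors and mature osteoblasts in one class), 9197 cells like late mesenchymal progenitors (LMP-like), 6475 like marrow adipogenic lineage progenitors (MALP-like), 1120 osteocyte-like (Ocy-like) and 8304 macrophage-like cells, each present in all 16 pools. The defining markers led each of these classes (Bglap and Ifitm5, Tagln and Acta2, Adipoq and Lpl, Sost and Dmp1, C1qa and C1qb, respectively). The Ocy-like class was the least sharply bounded, with 28.7% of its cells close to the limit towards another class. The osteoblast-like class joins progenitors and mature osteoblasts, which the study keeps in separate clusters. The part of these clusters in differences within the class was not tested. Granulocyte-like cells could be read in 9 pools, T-cell-like and B-cell-like cells in 4 each and osteoclast-like cells in 3. Pool 13 was shallow, with a median of 3211 UMIs per osteoblast-like cell against 14861.5 to 28608 in the other pools.

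Most members were highest in osteoblast-like or Ocy-like cells, and which of these classes came first differed from gene to gene. Levels are UMIs per 10,000 UMIs of the class, as mean ± SD over pools. Car12, a membrane carbonic anhydrase that acidifies the cell surroundings, was at 8.25 ± 1.94 in Ocy-like cells (n = 16 pools, lowest 4.35, median 8.05, highest 11.2) and at 2.88 ± 0.95 in osteoblast-like cells. It was low in the other stromal classes, at 0.109 ± 0.056 in LMP-like and 0.129 ± 0.129 in MALP-like cells. The osteoblast-like pools did not overlap with those of LMP-like, MALP-like or macrophage-like cells for Car12. Ndrg1, a stress-response gene that marks differentiation in many tissues, was at 5.81 ± 1.26 in Ocy-like cells (3.22 to 7.66, median 6.05) and 3.30 ± 1.17 in osteoblast-like cells, higher in Ocy-like cells in 16 of 16 pools. In MALP-like cells Ndrg1 was at 0.248 ± 0.107, and again the pools did not overlap with the osteoblast-like ones. Vegfa also did not overlap between osteoblast-like and macrophage-like pools. Across all genes, the share higher in osteoblast-like cells without overlap was 4.22% against LMP-like, 5.85% against MALP-like and 14.8% against macrophage-like cells, and 24.8% of genes lay higher in MALP-like cells without overlap.

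Bnip3, a receptor that sends mitochondria to autophagy, followed the order Ocy-like (6.82 ± 2.76), osteoblast-like (4.97 ± 1.81), LMP-like (3.61 ± 1.58) and MALP-like (3.21 ± 1.31). Only the first of these steps exceeded the SD of the within-pool difference, with Ocy-like cells higher in 16 of 16 pools. Ero1l, which takes electrons from protein disulfide isomerase during protein folding in the endoplasmic reticulum, ran the other way between these classes. It was at 3.18 ± 1.67 in osteoblast-like cells (0.504 to 6.04) and 2.13 ± 1.35 in Ocy-like cells (0.192 to 4.85), lower in Ocy-like cells in 16 of 16 pools although the ranges overlap. LMP-like cells held 1.98 ± 1.21 and MALP-like cells 0.71 ± 0.32 of Ero1l. Among stromal classes Ankrd37, like Ero1l, was highest in osteoblast-like cells (0.770 ± 0.324), above Ocy-like cells (0.539 ± 0.219) in 13 of 16 pools.

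The oxygen sensors were at similar levels in osteoblast-like and Ocy-like cells. Egln1 was at 2.68 ± 0.98 in osteoblast-like, 2.60 ± 1.19 in Ocy-like and 2.08 ± 0.84 in LMP-like cells, and at 0.943 ± 0.238 in MALP-like cells. Egln3 was at 0.861 ± 0.461, 0.769 ± 0.520, 0.604 ± 0.285 and 0.247 ± 0.158 in the same order. For both, neighbours among the first 3 classes differed by less than the SD of the within-pool difference. Hif1a lay between 1.30 ± 0.21 in LMP-like and 1.85 ± 0.25 in osteoblast-like cells.

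The secreted members differed from the others. Adm, which encodes the vasodilator peptide adrenomedullin, was highest in LMP-like cells at 1.64 ± 0.81 (0.572 to 3.34, median 1.54) and in Ocy-like cells at 1.46 ± 0.81, and low in osteoblast-like cells at 0.592 ± 0.306. LMP-like cells exceeded osteoblast-like cells in 16 of 16 pools, and so did Ocy-like cells, while LMP-like and Ocy-like cells did not differ beyond the spread. Vegfa, the main growth factor for blood vessels, was at 3.66 ± 0.41 in Ocy-like, 3.24 ± 0.74 in MALP-like, 3.05 ± 0.74 in osteoblast-like and 2.65 ± 0.79 in LMP-like cells, with no neighbouring step above its SD. Within pools it was nevertheless higher in Ocy-like than in osteoblast-like cells in 15 of 16. The median log2 ratio of all genes between osteoblast-like and MALP-like cells moved by 0.65 between values per 10,000 UMIs and trimmed-mean (TMM) scaling. With it the direction turned for Vegfa (a log2 ratio of -0.09 per 10,000 and 0.55 under TMM) and for Adm (-0.50 and 0.03), while the other members kept theirs. The shifts were 0.36 against LMP-like, 0.22 against macrophage-like and -0.15 for Ocy-like against osteoblast-like cells, and no member turned there.

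**Figure D1:**
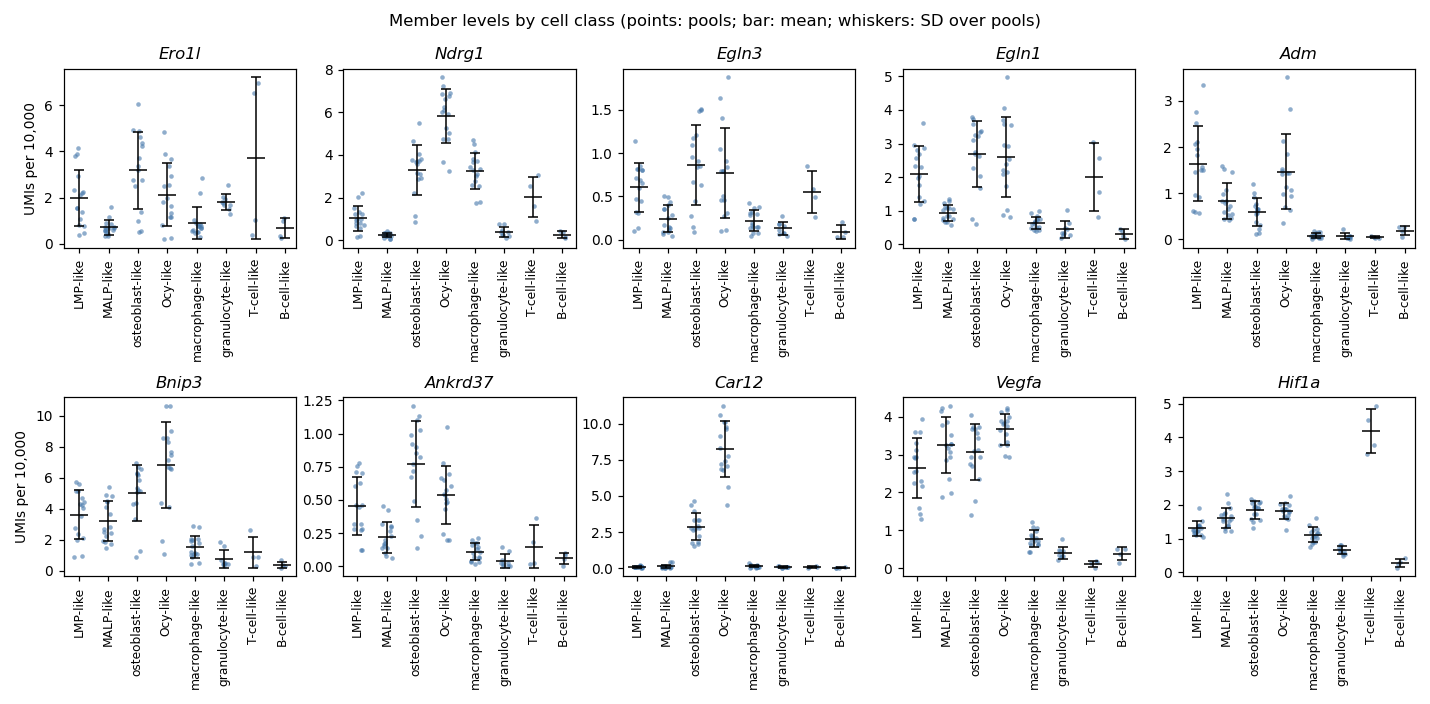
Each panel shows 1 member, with its level in UMIs per 10,000 (linear vertical axes that differ between panels) in 8 cell classes. Points are pools with at least 20 cells, the bar is the mean and the whiskers the SD over pools. Car12 reaches 4.35 to 11.2 in Ocy-like pools and stays near 0 outside the osteoblast-like and Ocy-like classes, while the means of Vegfa lie between 2.65 and 3.66 in the 4 stromal classes.

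Leukocytes held some members at stromal levels and others near the background. Free RNA from lysed cells reaches every droplet, so its level was read from collagen and matrix genes (Col1a1, Col1a2, Sparc and Ibsp) found in each leukocyte class and applied to the members. Ndrg1 in macrophage-like cells was at 3.26 ± 0.85 (1.77 to 4.70, n = 16 pools), 29.7 times that reference and within the range of osteoblast-like cells (higher in osteoblast-like cells in 10 of 16 pools). Car12 in macrophage-like cells (0.141 ± 0.079) was 1.74 times and Adm (0.0829 ± 0.0473) 2.44 times the reference. Both were the nearest to the reference of all members in these cells, but lay above it in 16 of 16 pools. Macrophage-like cells held Bnip3 at 1.52 ± 0.73, Hif1a at 1.11 ± 0.22, Ero1l at 0.902 ± 0.676 and Vegfa at 0.779 ± 0.229.

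Of the classes read, T-cell-like cells held the highest Hif1a, at 4.19 ± 0.66 (n = 4 pools), above osteoblast-like cells in 4 of 4 pools. Hif1a was at 3.51 in pool 6, 3.78 in pool 5, 4.51 in pool 14 and 4.94 in pool 8. Ero1l in the same T-cell-like cells fell into separate levels, at 6.95 in pool 6 and 6.54 in pool 5 against 1.01 in pool 14 and 0.403 in pool 8. The pools that were high for Ero1l were those lower for Hif1a, and pool 5 held only 21 such cells. Vegfa in T-cell-like cells (0.12 ± 0.083) was 1.26 times the free-RNA reference, above it in 2 of 4 pools, and is read as background. Ero1l in granulocyte-like cells was at 1.80 ± 0.35 (n = 9 pools), 18.3 times the reference.

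Between pools most members varied more than most genes of similar or higher level, a pattern that was among those the members were chosen by. In osteoblast-like cells Ero1l was lowest in pool 1 (0.504), had a median of 3.28 and was highest in pool 7 (6.04), a ratio of 12.0 between the extremes. Egln3 spanned a ratio of 15.6, Adm 9.84, Ankrd37 8.78, Bnip3 7.84, Ndrg1 6.4 and Egln1 6.15, while Hif1a spanned 1.63. On the log2 scale the SD over pools was 1.18 for Egln3, 1.11 for Ero1l, 0.70 for Ndrg1, 0.49 for Car12, 0.42 for Vegfa and 0.21 for Hif1a, beside a median of 0.228 and a 90th percentile of 0.402 over 2043 genes at least as high as the lowest member. Every member but Hif1a lay above that percentile. Of other lists at that level, 8 of 13 glycolysis genes, 7 of 11 further HIF targets, 3 of 12 genes of the endoplasmic reticulum (ER) stress response and 2 of 5 collagen hydroxylase and crosslinking genes did.

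Much of that spread came from pools 1 and 2. They were among the lowest 4 pools for 10 of 10 members in osteoblast-like cells, for 10 and 9 in LMP-like and macrophage-like cells, for 9 and 8 in MALP-like cells and for 7 and 8 in Ocy-like cells. Without them the log2 SD was 0.72 for Ero1l, 0.70 for Egln3, 0.65 for Adm, 0.49 for Ankrd37, 0.42 for Car12, 0.35 for Egln1, 0.32 for Ndrg1, 0.30 for Bnip3, 0.23 for Vegfa and 0.17 for Hif1a, beside a 90th percentile of 0.332, so that Ndrg1, Bnip3 and Vegfa were no longer above it. In the osteoblast-like cells of pools 1 and 2 the summed glycolysis genes were at 57.7 and 52.0 UMIs per 10,000 against 87.1 to 142 in the others, and the ER stress genes were also lowest there. Osteoblast-like cells made up 31.5% and 31.9% of the gated cells of these pools, but 28.8% in pool 7, which was high for most members. Their median UMI counts per osteoblast-like cell ranked 4 and 11 of 16. The part of any of these in the low member levels was not tested.

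Pool 14 differed from pools 1 and 2. It was among the lowest 4 for 9 members in osteoblast-like cells and for 6 in Ocy-like cells but for 0 in LMP-like, MALP-like and macrophage-like cells. Pool 7 was among the highest 4 for 9 members in osteoblast-like cells and among the lowest 4 for 7 members in MALP-like cells. The ranking of pools thus depended on the cell class.

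**Figure D2:**
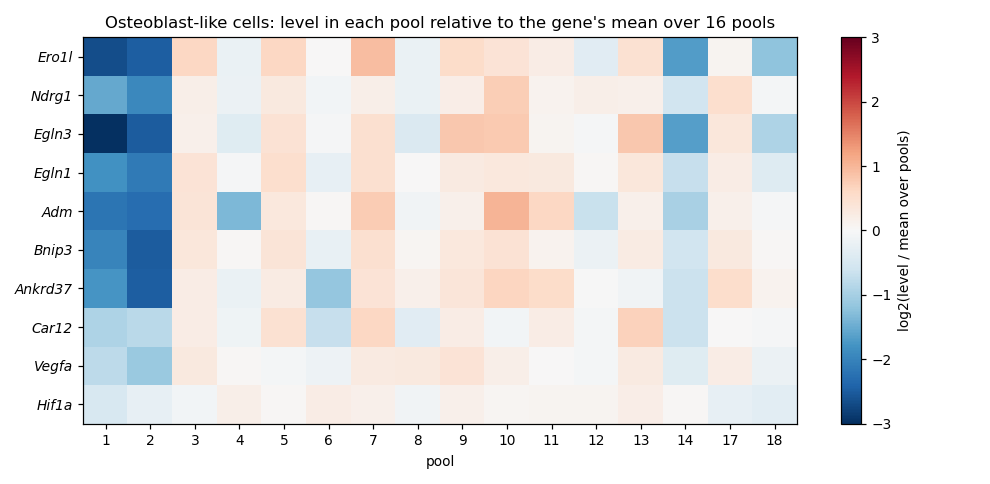
Colour gives the log2 of each member's level in the osteoblast-like cells of a pool (columns) relative to the member's mean over 16 pools (rows). Pools 1 and 2 are low for every member, pool 14 is low for most, and the Hif1a row is nearly even (ratio of highest to lowest 1.63).

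Within single cells most members rose and fell together in stromal classes. Car12 did so only weakly in LMP-like and MALP-like cells, with a mean r of up to 0.051 and 0.114 (both with Ndrg1). Cells were thinned to 4000 UMIs to give each the same depth, which left out the shallower cells (12.6% of osteoblast-like, 5.3% of LMP-like, 8.7% of MALP-like, 7.1% of Ocy-like and 30.4% of macrophage-like cells, and all but 1046 of 2786 osteoblast-like cells of pool 13), and Pearson correlations of log-normalised counts were taken within each pool. Over the 36 pairs of members other than Hif1a the median r was 0.197 ± 0.076 in osteoblast-like cells (mean ± SD over 16 pools, 0.029 to 0.315), 0.218 ± 0.074 in LMP-like cells and 0.174 ± 0.059 in Ocy-like cells (9 pools). It was lower in MALP-like cells (0.0892 ± 0.0515) and in macrophage-like cells (0.046 ± 0.029, 15 pools). The size of these medians depended on the thinning, and in Ocy-like cells also on the gate, as given under processing below. The mean of each of the 36 pairs was above 0 in each of these 5 classes, but some were close to 0. The lowest in macrophage-like cells was Ero1l with Ankrd37 (0.002 ± 0.074, above 0 in 6 of 15 pools). In MALP-like cells it was Bnip3 with Car12 (0.004 ± 0.054, 10 of 16 pools), and in LMP-like cells Ankrd37 with Car12 (0.012 ± 0.041, 8 of 16 pools). For comparison, the median r of a member with 4005 other genes in osteoblast-like cells lay between -0.0145 and -0.0005, and the 99th percentile between 0.0738 and 0.188. That percentile was 0.0401 to 0.170 in MALP-like and 0.0405 to 0.0812 in macrophage-like cells. Members were detected in 16.3% (Adm) to 70.0% (Bnip3) of osteoblast-like cells. In LMP-like cells it was 3.6% (Car12) to 54.0% (Vegfa), in MALP-like cells 3.1% (Car12) to 60.8% (Vegfa), and in macrophage-like cells 2.4% (Adm) to 57.8% (Ndrg1). The part of detection in the lower r was not tested.

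Bnip3 was part of the highest pairs. Its mean r in osteoblast-like cells was 0.373 with Egln1, 0.365 with Ero1l and 0.357 with Ndrg1, and each was positive in 16 of 16 pools. Bnip3 was also the member detected in most of these cells (70.0%) and had the highest 99th percentile of r with all genes (0.188). The part of detection in its rank was not tested. Hif1a was only loosely tied to the others, from 0.039 with Ankrd37 to 0.164 with Car12, and in MALP-like and macrophage-like cells some of its mean r were below 0. Within osteoblast-like cells Car12 stood apart from the other members by its r of 0.348 ± 0.081 with the collagen genes, where Bnip3 had 0.118 and Adm -0.055. With the glycolysis list the members ran from 0.083 (Hif1a) to 0.544 ± 0.093 (Bnip3).

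Of the 10 genes most like the members, 8 were on the fixed lists of glycolysis genes or further HIF targets. These lists held 14 and 14 of the 4005 genes ranked. They were chosen with earlier results of these data known, so the overlap is a description and no independent support. Ranked by mean r with the average of the members other than Hif1a over 16 pools of osteoblast-like cells, the first 10 of 4005 genes were Pgk1 (0.45), Bsg (0.445), Gapdh (0.430), Fam162a (0.429), Mt1 (0.399), Mif (0.389), Slc2a1 (0.369), Ldha (0.368), Pgam1 (0.365) and Higd1a (0.364). Pgk1, Gapdh, Slc2a1, Ldha and Pgam1 are enzymes or the glucose transporter of glycolysis. Among the first 100 genes were 13 of 14 glycolysis genes, 10 of 14 further HIF targets that could be ranked, 3 of 5 collagen hydroxylase and crosslinking genes and 3 of 14 ER stress genes, while 69 of the 100 were on none of the fixed lists. None of the 3 HIF subunits and regulators that could be ranked was among them.

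**Figure D3:**
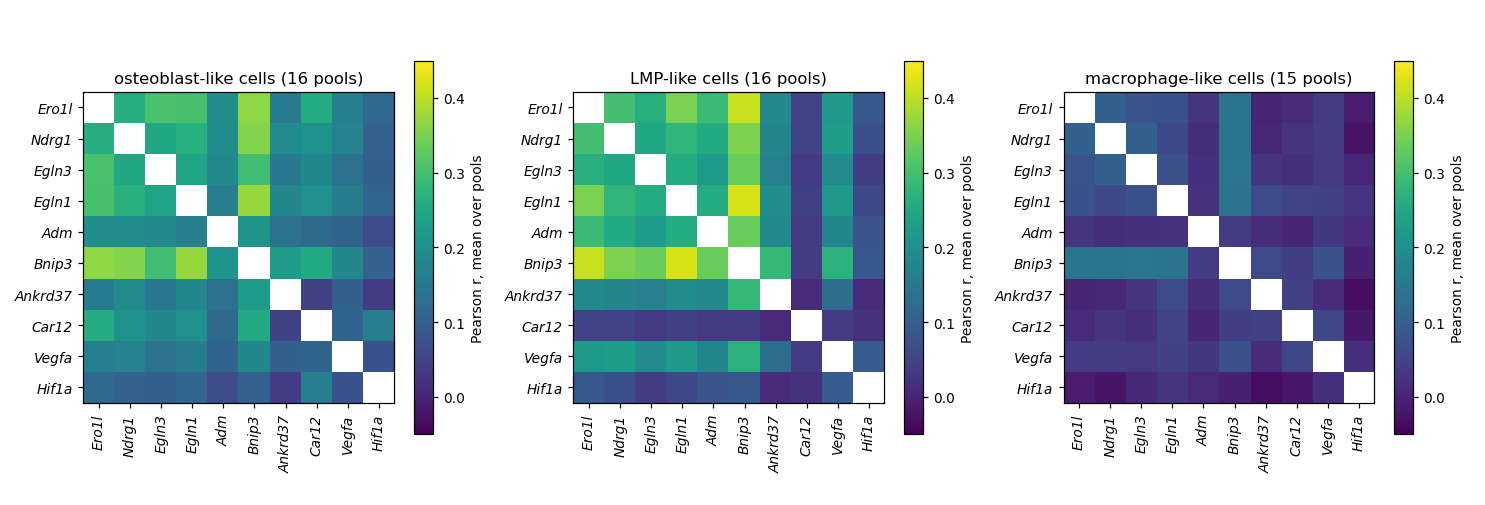
Colour gives the Pearson r of each pair of members within cells thinned to 4000 UMIs, as the mean over pools, in osteoblast-like, LMP-like and macrophage-like cells. The block around Bnip3, Ero1l, Ndrg1, Egln3 and Egln1 is bright in both stromal classes, and the Hif1a row is dark in all 3 panels. Car12 joins the block in osteoblast-like cells but not in the other panels. It was detected in 46.0% of osteoblast-like, 3.6% of LMP-like and 3.7% of macrophage-like cells.

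The members were then tested on splits of cells that did not use them. The members and the lists behind the splits were chosen with earlier results of these data known. The glycolysis split also restates the correlations with that list given above. Calls and adjusted p values of the splits are therefore read as a description of size and direction, not as independent support. In each pool the osteoblast-like cells with at least 4000 UMIs were ranked by the summed UMIs of 14 glycolysis genes after thinning, and of 3 groups of equal size the upper was compared with the lower (7816 cells each, 165 against 54.1 glycolysis UMIs per 10,000). The edgeR quasi-likelihood test with pool as a block and Benjamini-Hochberg adjustment over 8752 genes called 48.4% of all genes, 23.4% as higher and 25.0% as lower in the upper group. The 8 members that reached the count filter in each group were all called higher. Egln3 and Ankrd37 reached it only in the upper group, so their values are given without a test. Bnip3 was at 9.48 UMIs per 10,000 in the median pool of the upper group (1.59 to 11.0) and 2.23 in the lower group (0.383 to 3.78), a log2 fold change of 2.23 ± 0.11 (SE, adjusted p = 5.04e-15), higher in 16 of 16 pools. Adm rose by 2.28, Ero1l by 2.21 and Egln1 by 1.98 on the log2 scale. These steep members stand against a median of all genes of -0.03, which TMM scaling had moved by 0.16 from that per 10,000 UMIs. Egln3 had a median of 0.248 UMIs per 10,000 in the lower and 1.69 in the upper group (a log2 fold change of 2.73 ± 0.16), and the value of Ankrd37 was 2.51.

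Ndrg1 followed with 1.71 and Car12 with 1.29. Vegfa and Hif1a moved least, by 0.62 ± 0.07 and 0.54 ± 0.07 (adjusted p = 1.22e-08 and 2.16e-07), and for both the pools of the groups overlapped widely. Hif1a was at 2.26 UMIs per 10,000 in the median pool of the upper group and 1.62 in the lower group, higher in 13 of 16 pools. Adm was higher in 14 of 16 pools and Ndrg1 in 15 of 16. The upper group had a lower mitochondrial share (2.44% against 3.17%) and a slightly lower leukocyte score (0.035 against 0.047), and was deeper in 8 of 16 pools. The part of the mitochondrial share in these differences was not tested.

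The other cell types were split by the same genes. In LMP-like cells, with 42.0% of 7000 genes called (22.6% higher, 19.4% lower), Bnip3 rose by 3.37, Ero1l by 3.05, Adm by 2.65, Egln1 by 2.62 and Vegfa by 1.20 on the log2 scale, and Hif1a by 0.42 (adjusted p = 0.000217), which was 0.16 on the scale per 10,000 UMIs and higher in 11 of 16 pools. Bnip3 was at 7.74 in the median pool of the upper group and 0.727 in the lower group. Ndrg1 (3.06), Egln3 (3.64) and Ankrd37 (3.64) reached the count filter only in the upper group there, so their values have no test, and Car12 was under it. In MALP-like cells, with 25.8% of 5766 genes called (15.2% higher, 10.6% lower), Bnip3 rose by 2.17, Ero1l by 1.54, Egln1 by 1.13, Adm by 1.07 and Vegfa by 0.89. Hif1a gave 0.01 ± 0.08 there (adjusted p = 0.929, -0.10 on the scale per 10,000), and Ndrg1, Egln3, Ankrd37 and Car12 were under the count filter. The upper group had a lower mitochondrial share in LMP-like (3.11% against 3.91%) and MALP-like cells (3.90% against 4.20%). It was deeper in 9 and 11 of 16 pools, and its collagen score was higher in LMP-like cells (3.125 against 2.676). The part of these in the differences was not tested.

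Macrophage-like cells could be split in 15 pools, with 21.4% of 5053 genes called (10.6% higher and 10.8% lower). Bnip3 rose by 1.70, Ero1l by 1.49, Egln1 by 0.79, Ndrg1 by 0.68 and Vegfa by 0.47. Hif1a was the only tested member that fell, by 0.31 ± 0.11 on the log2 scale (adjusted p = 0.0358), from a median of 1.41 to 0.956 UMIs per 10,000 and lower in 12 of 15 pools. This call was lost without pool 13 (-0.27, adjusted p = 0.0706). The upper group was deeper in 14 of 16 macrophage-like pools and had a lower macrophage marker score (2.04 against 2.31) and mitochondrial share (3.80% against 4.4%). These values were read over all 16 pools, not only the 15 tested. The part of depth, marker score and mitochondrial share in the differences was not tested.

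The split was compared between osteoblast-like and macrophage-like cells by an interaction term over 15 pools. It called 11.6% of 8687 genes (6.91% with the larger and 4.73% with the smaller effect in osteoblast-like cells). The members were chosen by levels and correlations across these cell types. The calls of members are therefore a description here too, not independent support. Of the 6 members that reached the count filter in both cell types 3 were called, each larger in osteoblast-like cells. These were Egln1 with a difference of 1.17 ± 0.25 (adjusted p = 0.00079), Ndrg1 with 1.05 ± 0.19 (adjusted p = 0.000156) and Hif1a with 0.87 ± 0.14 (adjusted p = 2.79e-05) on the log2 scale. Egln3, Adm, Ankrd37 and Car12 reached the filter only through osteoblast-like cells and are not read here. In macrophage-like cells Car12 was at 0.142 and 0.121 UMIs per 10,000 in the upper and lower group. Over the whole class it was at 1.74 times the free-RNA reference. For Bnip3 (0.46 ± 0.24, adjusted p = 0.231) and Ero1l (0.58 ± 0.36, adjusted p = 0.321) a difference between the cell types was not shown.

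**Figure D4:**
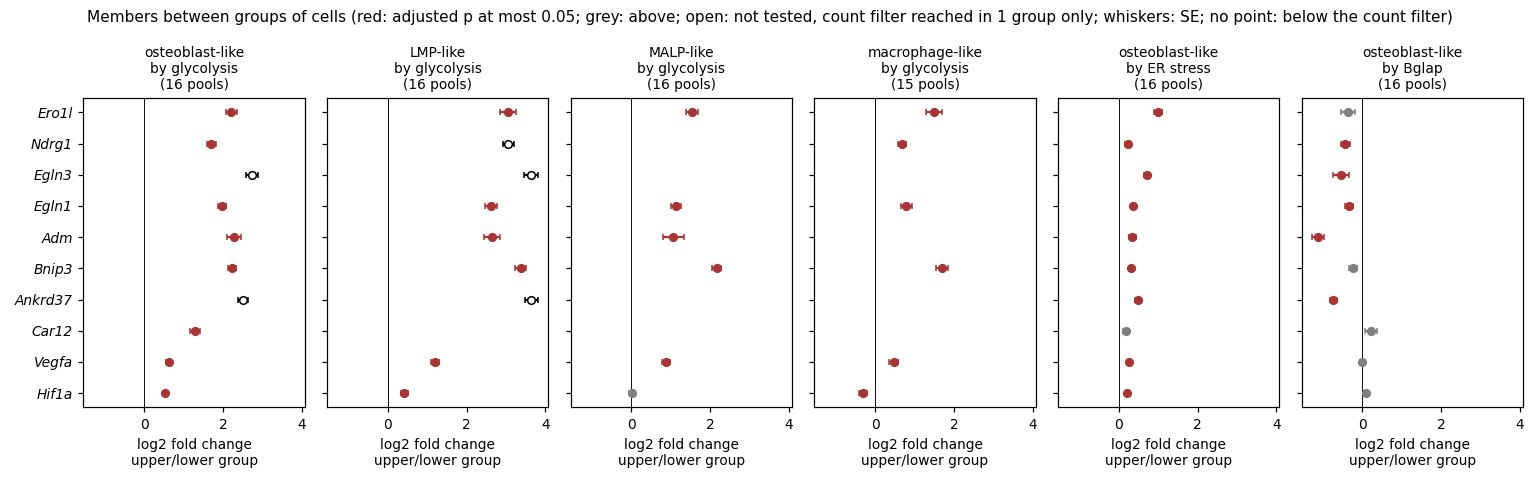
Points are log2 fold changes of each member between the upper and lower group of cells, with SE whiskers, for 6 splits (16 pools, 15 in macrophage-like cells). Points are red where the edgeR adjusted p was at most 0.05, grey where it was above, and open where the member reached the count filter only in the upper group and has no test (Egln3 and Ankrd37 in the glycolysis splits of osteoblast-like and LMP-like cells, and Ndrg1 in the latter), and a member under the filter has no point. The glycolysis splits give the large values (Bnip3 3.37 in LMP-like cells), the ER stress split lifts Ero1l most (1.00) and the Bglap split moves Adm furthest down (-1.13).

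A split of the same osteoblast-like cells by 15 ER stress genes gave smaller differences. It called 21.0% of 8752 genes (10.4% higher), and 9 of 10 members were higher in the upper group. Ero1l was at 4.57 UMIs per 10,000 in the median pool of the upper group (0.547 to 7.79) and 1.99 in the lower group (0.447 to 4.17), a log2 fold change of 1.00 ± 0.09 (adjusted p = 7.36e-10), higher in 16 of 16 pools. It was the member with the largest difference, followed by Egln3 (0.72) and Ankrd37 (0.49). The other called members lay between 0.22 (Hif1a) and 0.37 (Egln1), and Car12 gave 0.19 ± 0.07 (adjusted p = 0.0577). Without pool as a block the calls of all 9 were lost (Ero1l adjusted p = 0.0757) while the values kept their direction.

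Osteoblast-like cells were also split by the osteocalcin genes Bglap, Bglap2 and Bglap3, the late product of osteoblasts. Bglap and Bglap2 were also gate markers of this class. Cells in the upper group of this split had less of several members, with 34.1% of 8674 genes called (18.2% lower) and 5 of 10 members lower. Adm fell most, from a median of 1.02 to 0.429 UMIs per 10,000 (a log2 fold change of -1.13 ± 0.15, adjusted p = 1.72e-06), lower in 14 of 16 pools. Ankrd37 (-0.73), Egln3 (-0.54), Ndrg1 (-0.43) and Egln1 (-0.33) also fell. Ero1l (-0.36, adjusted p = 0.122) and Bnip3 (-0.24, adjusted p = 0.0508) did not pass, and Car12 gave 0.21 ± 0.15 (adjusted p = 0.307). Vegfa (0.00 under TMM, -0.16 per 10,000) and Hif1a (0.08 and -0.10) turned direction with the scaling. Without pool as a block Ndrg1, Egln3 and Egln1 lost their calls (adjusted p = 0.17, 0.387 and 0.365).

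The other genes of the pathway were taken from fixed lists. In the glycolysis split of osteoblast-like cells 5 of 5 collagen hydroxylase and crosslinking genes were higher, led by the prolyl 4-hydroxylase subunits P4ha2 (log2 fold change 1.59) and P4ha1 (1.31), enzymes that need oxygen to stabilise collagen. Of the 16 further HIF targets that reached the count filter in each group 13 were higher, with Gbe1 (2.00), Fam162a (1.90) and Higd1a (1.75) in the lead, and the heme oxygenase Hmox1 was lower (-0.27). Car9 (2.36) reached the filter only in the upper group and Angptl4 (-1.25) in neither group alone, so these values have no test. The 16 targets had a median log2 fold change of 0.96. Of 14 ER stress genes that reached the filter in each group 9 were higher, with a median of 0.25. The glycolysis genes themselves defined the split.

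Among HIF subunits and regulators the split did not act evenly. Vhl, which captures the hydroxylated alpha subunit, rose by 1.05 (adjusted p = 6.9e-09), and Siah2 (0.75) and Egln2 (0.38, adjusted p = 0.00128) were also higher. Epas1, the other alpha subunit, fell by 0.71 on the log2 scale (adjusted p = 4.32e-06), lower in 16 of 16 pools, from 0.209 to 0.109 UMIs per 10,000 in the mean. Epas1 was also lower in LMP-like cells (-0.33, adjusted p = 0.0421) and MALP-like cells (-0.57, adjusted p = 0.000113). In macrophage-like cells Epas1 reached the count filter in neither group alone and is not read. Arnt (-0.04, adjusted p = 0.883) and Hif1an (0.15, adjusted p = 0.345) did not pass in osteoblast-like cells.

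Class contrasts called most genes (80.0% of 12891 for osteoblast-like against LMP-like, 79.2% against MALP-like, 86.2% against macrophage-like and 53.3% for Ocy-like against osteoblast-like cells), so their counts are read against that. Higher in osteoblast-like cells were 38.6% (41.5% lower) against LMP-like, 40.4% (38.8% lower) against MALP-like and 45.1% (41.1% lower) against macrophage-like cells, and 25.0% of genes were higher and 28.4% lower in Ocy-like than in osteoblast-like cells. Under TMM scaling glycolysis genes were higher in osteoblast-like than in LMP-like cells for 12 of 14 and than in MALP-like cells for 14 of 14. Per 10,000 UMIs the direction turned for 4 of those 12 (Aldoa at 9.11 against 10.3, Pgam1 at 10.2 against 11.5, Pfkl and Gpi1) and for 1 of those 14 (Hk2), all named after their values were seen, while Slc16a3, the lactate exporter, was at 2.44 against 1.25 in LMP-like cells. In Ocy-like against osteoblast-like cells 9 of 14 glycolysis genes were lower and 1 higher, and 4 of 5 collagen hydroxylase and crosslinking genes were lower. Against macrophage-like cells 10 of 14 glycolysis genes were higher and 3 lower in osteoblast-like cells, as were 15 and 4 of 20 further HIF targets, 11 and 4 of 15 ER stress genes and 2 and 5 of 7 tested HIF subunits and regulators, of which Arnt turned per 10,000 UMIs (0.288 against 0.304). The 20 targets include genes near 0 in macrophage-like cells, such as Ppp1r3c (0.005 against 0.036 in osteoblast-like cells). Such genes can only be called higher in osteoblast-like cells. Between Ocy-like and osteoblast-like cells Car12 (log2 ratio 1.41 under TMM), Adm (1.18), Ndrg1 (0.73) and Bnip3 (0.30) were higher. Ero1l (-0.76) and Ankrd37 (-0.64) were lower, as described above, and the other members lay between -0.31 (Egln3) and 0.14 (Vegfa). Epas1 was higher in LMP-like than in osteoblast-like cells (0.415 against 0.149 UMIs per 10,000, a log2 fold change of -1.14 ± 0.07 for osteoblast-like against LMP-like, adjusted p = 4.02e-12).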

How the data were processed

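Droplet-based 3′ libraries of 16 pools of BMSC-OBs were measured, each in 2 runs. Alignment and counting by the authors used Cell Ranger 5.0.0 and GRCm38 (mm10), and the deposited matrices hold raw UMI counts per gene and called cell, before cell filters, doublet removal and assignment to mice. The annotation release is not given in the sources used here. The members and gene lists were chosen with earlier results of these data known.

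A cell was kept if it had 400 to 6200 detected genes, at least 2000 UMIs, and a share of mitochondrial transcripts up to 10%, of Rpl transcripts up to 20% and of Rps transcripts up to 15% (72779 of 107853 barcodes). The methods of the study word the first limits as reads, and they were applied to detected genes. Cells were assigned to a class by the mean log-normalised level of fixed markers (minimum 0.4, margin 0.1), with no clustering, and 15342 stayed without a class. Doublets were not removed by genotype; 2889 droplets with stromal and leukocyte markers were left out. A gate for monocytes was led by granzymes and neutrophil proteases and was not named or used. Pools with at least 20 cells of a class (50 for correlations) were read.

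For each class, or each ranked group of cells, the counts of a pool were added up and tested with the edgeR 4.0.16 quasi-likelihood test (R 4.3.3, TMM, filterByExpr, pool as a block, Benjamini-Hochberg over all genes tested, threshold 0.05). The same test was also run on counts simulated from the means and dispersions of these data, with 200 genes changed by 1 on the log2 scale. It recovered 80.5% (interaction) to 100% of them. False calls made up 3.2% to 7.5% of its calls, the most for osteoblast-like against LMP-like cells. Pools pair the sums because both sides come from the same mice: deviations of paired sums correlated at 0.101 or more in every pool, with medians of 0.501 to 0.82. Python 3.11.15, numpy 2.4.6, scipy 1.17.1 and pandas 2.3.3 were used for the rest. Besides the members, the text names up to 4 genes per list and comparison with the largest change past the threshold, Epas1, Arnt, Vhl, Hif1an and Egln2, and the 10 genes most like the members. Hmox1 and Angptl4 were named after their values were seen. Alternatives were DESeq2 1.42.0, other size factors, no count filter, no block, run HHFFMCCX2, no pool 13, the outer of 4 groups of cells in place of 3, thinning to 2000 UMIs, a stricter gate (margin 0.2), mixed droplets kept and no upper limit on detected genes.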

Additional observations from a re-analysis of the deposited data

Results flagged for a closer look

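The glycolysis split was compared between osteoblast-like and macrophage-like cells by the interaction term of edgeR's quasi-likelihood fit (11.6% of 8687 genes were called). Of the 6 members that reached the count filter in both, 3 were called. The term was 1.05 for Ndrg1, 1.17 for Egln1 and 0.87 for Hif1a on the log2 scale. The members were chosen by patterns across these cell types, so these values are a description and no independent support. Ndrg1 went from 1.86 to 5.62 UMIs per 10,000 between the lower and upper group in osteoblast-like cells and from 2.55 to 4.09 in macrophage-like cells (means of 15 pools). For Hif1a the means went from 1.64 to 2.13 in osteoblast-like and from 1.27 to 0.928 in macrophage-like cells. The term of 1.14 for Car12 is not read as a difference, since Car12 was under the count filter in macrophage-like cells. Car12 was at 1.74 times the free-RNA reference there, above it in 16 of 16 pools. The adjusted p of its term, 0.0136, became 0.0521 in run HHFFMCCX2 and 0.127 without pool as a block.

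In granulocyte-like cells, pool 9 lay apart from the other pools for Adm, at 0.227 UMIs per 10,000 with the next pool at 0.0738 (n = 9 pools). The value of pool 9 rests on 6 UMIs in 49 cells, and Adm in this class was 1.79 times the free-RNA reference and above it in 5 of 9 pools. In the same class pool 6 lay apart for Vegfa, at 0.773 with the next pool at 0.479. Of 30 combinations of member and class small enough for this outlier check these were the ones marked, and chance marks about 1 in 20.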

How the results depend on the processing

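No call of a member or list gene turned direction under the alternatives fitted, but values per 10,000 UMIs turned against TMM for Vegfa, Adm and Hif1a and for some list genes in the class contrasts. Of the calls in the Bglap split 46.72% were higher, and up to 52.51% under an alternative; for the interaction it was 59.35%, and 49.51% without pools 1 and 2. The number of genes called changed by over 1.5 times without the replicate block (1495 genes in the Bglap split, 304 in the ER stress split, 859 and 557 in the glycolysis splits of MALP-like and macrophage-like cells, 494 for the interaction) and after thinning to 2000 UMIs (1945 in the Bglap split, 947 in the ER stress split, 1818 and 861 in the glycolysis splits of LMP-like and MALP-like cells). Beside these stand 2958, 1839, 1486, 1083 and 1011 genes with the block and 2940 in LMP-like cells. The replicate block changed no call of a member in the glycolysis splits of stromal cells. With no count filter, 35.89% of the calls between Ocy-like and osteoblast-like cells were higher in Ocy-like cells, against 46.78% with it. Median correlations without thinning were 0.340 in osteoblast-like, 0.275 in Ocy-like, 0.396 in LMP-like and 0.151 in MALP-like cells. Thinning to 2000 UMIs gave 0.106 in Ocy-like and 0.133 in LMP-like cells, and the stricter gate 0.102 in Ocy-like cells. Why these differ was not tested, except that thinning removes molecules from every cell.

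Egln3 lost its call in the Bglap split with DESeq2 (adjusted p = 0.175) and with the outer of 4 groups of cells (0.0567), and Bnip3 gained one with pools 1 and 2 left out, an alternative chosen after seeing the data. Adm and Hif1a lost theirs in the ER stress split after thinning to 2000 UMIs (0.0697 and 0.171), as did Vegfa in macrophage-like cells (0.56). Ndrg1, Egln3, Ankrd37 and Car12 in MALP-like cells and Egln3, Adm, Ankrd37 and Car12 in macrophage-like cells were under the count filter, so their splits were not tested, and pools of 4 or 5 mice give no value per mouse.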
